A study of Mus musculus with 4 samples.

Results

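The genes described here are 10 genes of bone morphogenetic protein (BMP) and activin signalling: ligands, antagonists and their relatives, a protease (Bmp1) and a target (Id1). They are Bmp1, Bmp2, Bmp4, Grem1, Nog, Fst, Fstl1, Fstl3, Inhba and Id1. Every probe set annotated to these genes was followed, 13 in all, among the 12393 genes that the array's annotation names. They were measured in mouse embryonic fibroblasts, connective-tissue cells grown out of whole embryos, on 2 arrays from Med1-/- p53-/- cells and 2 from Med1+/+ p53-/- cells. Both genotypes therefore lacked p53. All embryos were C57BL/6J, were taken at embryonic day 10.0 and came, per the labels, from 1 cross of a Med1+/- p53-/- male with a Med1+/- p53+/- female. The Med1 protein belongs to Mediator, which passes signals from DNA-bound factors on to RNA polymerase II. The labels do not say whether a genotype's 2 arrays stand for separate embryos or cultures, so the p-values reflect the spread among these arrays alone, which may be technical. Effects of Med1 loss and other differences between the embryos cannot be told apart.

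BMPs are secreted growth factors that bind pairs of type I and type II receptor kinases, which phosphorylate Smad1, Smad5 and Smad9; these enter the nucleus with Smad4 and switch on genes such as those of the Id family. Activins, built from inhibin beta chains, use related receptors and other Smads. In mesenchyme the strength of both signals is set outside the cell as much as by the ligands themselves: gremlin and noggin bind BMPs, follistatin and its relative follistatin-like 3 bind activins and some BMPs, and the protease encoded by Bmp1, which is no BMP in spite of its name, cuts procollagens and the BMP antagonist chordin.

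Fstl3 rose and Grem1, Fst, Bmp4 and, less far, Inhba fell in Med1-/- cells relative to the median change of all tested probe sets. Id1, the target gene of the set, differed little, and Bmp1 did not pass the test. Of the 13 probe sets, 9 (from 8 genes) were bright enough to be tested. Of these 1 was called higher (Fstl3) and 6 lower, those of Grem1, Fst, Bmp4 and Inhba and both of Fstl1, at an adjusted p under 0.05 (limma, Benjamini-Hochberg adjustment over 13576 probe sets). Calls were frequent on these arrays: 36.3% of all tested probe sets were called higher, 35.3% lower and 71.6% either way, so 7 calls among 9 probe sets (77.8%) is close to the background, and it is the size of single changes that sets members apart from each other. The lower genotype's mean of each of the 9 was itself above the filter, the dimmest being Fstl3 in Med1+/+ cells at 5.06, so none was tested through 1 bright genotype alone. The genotypes did not overlap in normalized signal for any of the 9, as for 86.6% of all tested probe sets. The Fstl3 change lay above that of 99.8% of tested probe sets and the Grem1 change below that of 98.9% of them. The tested probe sets of Fstl1, Id1 and Bmp1 (0.72) lay between the quartiles of -0.81 and 0.83 (log2) that hold the middle of all changes. Inhba, at -0.82, lay just beyond the lower quartile, and 24.5% of tested probe sets had a lower change.

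Values were given as normalized signals on a log2 scale, quantile normalized between arrays with 1.7 added before the logarithm, and changes are Med1-/- minus Med1+/+. The deposited signals differed in level between the arrays. Their median was 36.1 and 51.4 for Med1-/- arrays, against 76.25 and 106.6 on the Med1+/+ arrays. Med1 itself checked the labels: its brightest probe set, 1448708_at, read 25.4 and 40.2 in Med1-/- cells, against 664.6 and 885.6 in Med1+/+ cells, before scaling. Of 13 fibroblast markers, 12 had a mean above the filter in both genotypes, the exception being Fap (4.595 in Med1-/-, against 5.44 in Med1+/+ cells). Of the 13, 5 were called higher: Col1a1 (1.98), Thy1 (1.34), Twist1 (1.225), Col3a1 (1.11) and Twist2 (0.58). The 4 called lower were Pdgfra (-2.95), Prrx1 (-2.89), S100a4 (-2.68) and P4hb (-0.72). All of these but Col1a1 were named after their values were seen. The 13 had a summed normalized signal of 46970 to 49410 in Med1-/-, against 44500 to 47990 in Med1+/+ cells. The brightest markers weigh most in this sum, so it hides changes of dimmer ones and is no measure of fibroblast content. The summed signal of 8 smooth muscle markers was 33200 to 34960 in Med1-/-, against 15110 to 15630 in Med1+/+ cells (7 of 7 tested called higher), and that of 10 epithelial markers was 2437 to 2804 in Med1-/-, against 5110 to 5254 in Med1+/+ cells (5 of 7 tested called lower, 1 higher). Of 7 endothelial and 7 macrophage and blood markers on the array, 6 each were below the filter in signal, with sums of 65.2 to 90.2 and 122.9 to 129 in Med1-/-, against 44.2 to 68.6 and 99.8 to 112.7 in Med1+/+ cells. The marker counts are to be read against all tested probe sets, of which 36.3% were called higher, 35.3% lower and 71.6% either way. Among the 13 fibroblast markers 69.2% were called, close to that background. The part of the differences in cell type markers in the changes below was not tested. In such bulk RNA, fewer cells of a type and less RNA per cell cannot be told apart.

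**Figure D1:**
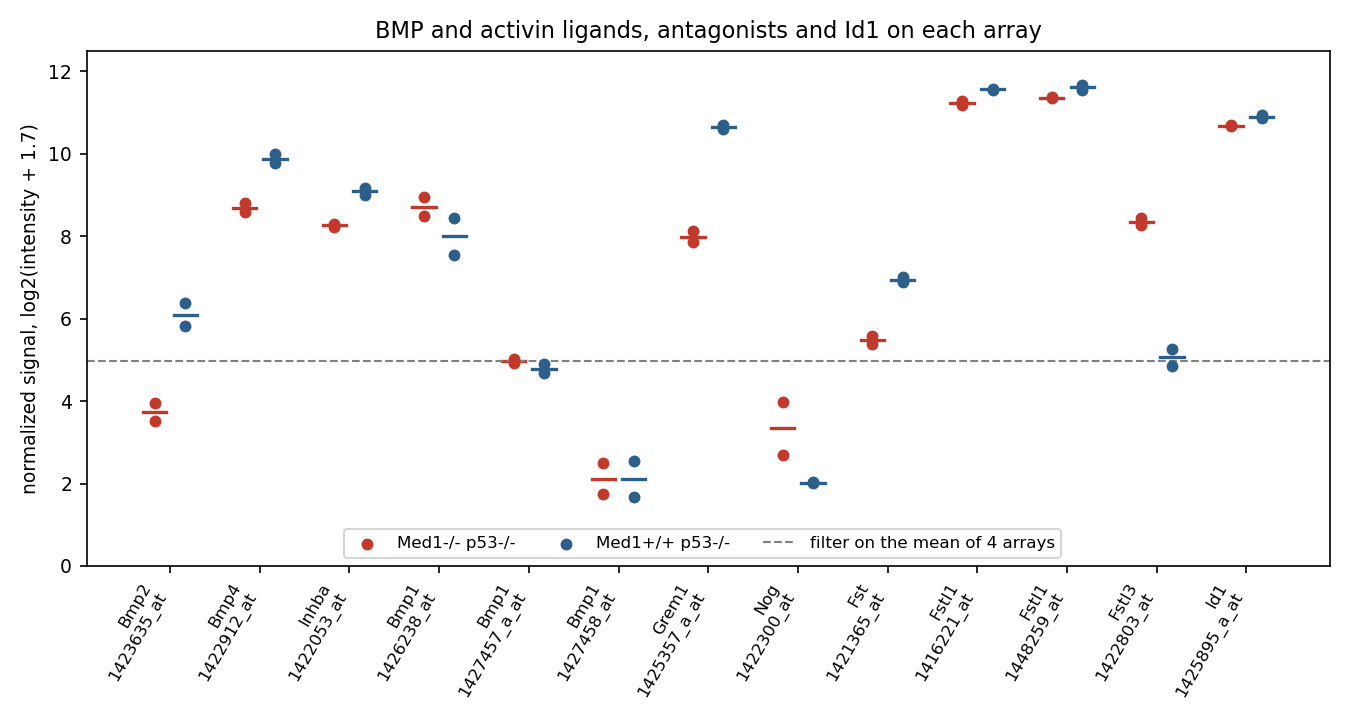
Normalized signal, log2(intensity + 1.7), of the 13 probe sets on each of the 2 Med1-/- p53-/- arrays (red, left of each pair) and the 2 Med1+/+ p53-/- arrays (blue, right); points are arrays, bars are means, and the dashed line is the filter at 4.98, which the mean of the 4 arrays had to reach. Fstl3 is the member that stands clearly higher in Med1-/- cells, and Bmp2, Bmp4, Inhba, Grem1 and Fst stand lower.

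The largest changes among the 9 tested probe sets were those of 2 antagonist genes, Fstl3 and Grem1, in opposite directions. The ligand gene Bmp2, which lay under the filter, is described further on. Fstl3 (chr10:79777274-79782630 in GRCm38.p6, the build of all positions given here) encodes follistatin-like 3, a secreted protein that binds activins. Its normalized signal was 8.26 and 8.44 on the Med1-/- arrays, against 4.86 and 5.26 on the Med1+/+ arrays. The deposited signal was 175 and 287.8 in Med1-/-, against 30.3 and 57.1 in Med1+/+ cells, so Fstl3 was higher in Med1-/- cells before scaling too, although the median signal of those arrays was lower. Fstl3 rose by 3.29 on the log2 scale (SE 0.20, n = 2 per genotype, adjusted p = 8.38e-05, limma), which is 9.77-fold. Because Med1+/+ cells were dim for this gene, the size depends on the number added before the logarithm: with 50 in place of 1.7 the change was 2.19.

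Grem1 (chr2:113748675-113758648) encodes gremlin 1, which binds BMP ligands and keeps them from their receptors. Its normalized signal was 8.12 and 7.87 on the Med1-/- arrays, against 10.7 and 10.6 on the Med1+/+ arrays, and before scaling it was 156.8 and 187.3 in Med1-/-, against 1686.5 and 2251.3 in Med1+/+ cells. The genotypes lay far apart compared with the spread of either pair. Grem1 fell by 2.65 on the log2 scale (SE 0.13, n = 2 per genotype, adjusted p = 7.26e-05, limma), a signal 6.29-fold higher in Med1+/+ cells.

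The stretches just before the start sites of Fstl3 and Grem1, the members with the largest rise and the largest fall, are shown because these genes carry the main contrast. Each is the 250 bases before the start in RefSeq's promoters of GRCm38.p6, 5′ to 3′ on the gene's own strand, in lower case. Capitals mark 3 motifs searched on both strands, the Smad box CAGAC, the GC-rich motif GGCGCC known for Smads of the BMP pathway, and the TATA box TATAAA. Fstl3 lies on chromosome 10 (chr10:79777024-79777273, plus strand) and Grem1 on chromosome 2 (chr2:113758649-113758898, minus strand).
Fstl3: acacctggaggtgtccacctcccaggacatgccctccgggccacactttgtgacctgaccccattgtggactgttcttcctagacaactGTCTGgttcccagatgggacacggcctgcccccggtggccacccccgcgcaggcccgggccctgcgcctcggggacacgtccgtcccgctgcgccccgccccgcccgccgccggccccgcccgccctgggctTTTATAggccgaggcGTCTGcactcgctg
Grem1: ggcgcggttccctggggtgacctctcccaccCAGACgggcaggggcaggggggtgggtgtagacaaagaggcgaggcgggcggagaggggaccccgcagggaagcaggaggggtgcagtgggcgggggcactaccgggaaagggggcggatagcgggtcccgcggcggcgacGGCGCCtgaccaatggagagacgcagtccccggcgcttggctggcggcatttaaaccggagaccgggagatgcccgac

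The Fstl3 stretch held 2 Smad boxes, at positions -161 and -14 before the start, and a TATA box motif at -29. These matches were all on the strand opposite to the gene's own, where the printed letters are GTCTG and TTTATA. The Grem1 stretch held 1 Smad box, at -219, and 1 GC-rich motif, at -78, and no TATAAA. None of the marked motifs overlapped another. Among 32851 promoter windows of the same length, 42.2% held a Smad box, 9.59% the GC-rich motif and 12.4% a TATA box, so that the Smad box in particular is common. Both stretches were rich in G and C, at 71.2% for Fstl3 and 72.0% for Grem1, against a median of 52.4% over all windows. Of the other members, 3 had an entry. Bmp4 (63.2% G and C) and Fstl1 (68.0%) held none of the motifs, and Inhba (43.2%) held a TATA box at -91. These matches describe letters in a window and were not tested against the changes.

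Fst (chr13:114452262-114458989) encodes follistatin, the activin-binding protein after which Fstl3 is named. Its normalized signal was 5.57 and 5.39 on the Med1-/- arrays, against 7.005 and 6.88 on the Med1+/+ arrays, with no overlap. Fst fell by 1.46 on the log2 scale (SE 0.20, n = 2 per genotype, adjusted p = 0.000742, limma), and by 0.88 with 50 added before the logarithm. Fst and Fstl3, 2 activin-binding proteins of 1 family, thus differed in opposite directions between the genotypes. Fst and Inhba both lie on chromosome 13, where 64.1% of 463 tested probe sets were called lower and the median change was -0.89, the lowest median among 20 chromosomes (the next was -0.59, chromosome X). The part of this chromosome-wide difference in the fall of Fst and Inhba was not tested. Of the tested pathway genes described further on, 5 lie on the same chromosome. Smad5, Id4 and Ogn were called lower there, and Bmp6 and Msx2 higher. The part of the chromosome-wide difference in these changes was not tested either.

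Fstl1 (chr16:37777055-37836516) encodes a secreted glycoprotein that shares a follistatin-like domain. On probe set 1416221_at the normalized signal was 11.2 and 11.3 in Med1-/-, against 11.6 and 11.6 in Med1+/+ cells, and Fstl1 fell by 0.34 (SE 0.09, adjusted p = 0.0154, limma, n = 2 per genotype). Probe set 1448259_at gave -0.26 (SE 0.09, adjusted p = 0.0444, limma, n = 2 per genotype). These calls are insecure: with the arrays' medians set equal instead, the changes were 0.16 and 0.25, and neither passed. They were also lost when an array was left out, for 1416221_at without Med1-/- replicate 1 (adjusted p = 0.0931), Med1+/+ replicate 1 (0.0691) or Med1+/+ replicate 2 (0.0645), and for 1448259_at without any 1 of the 4 arrays (0.0694 to 0.228).

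Nog (chr11:89300638-89302559) encodes noggin, a BMP-binding protein, and was dim on every array. Its deposited signal was 8.5 and 4.1 in Med1-/- cells, against 2.4 and 3.4 in Med1+/+ cells, below the filter, and it was not tested. Without any filter Nog had a log2 difference of 1.32 that did not pass (adjusted p = 0.135, limma).

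**Figure D2:**
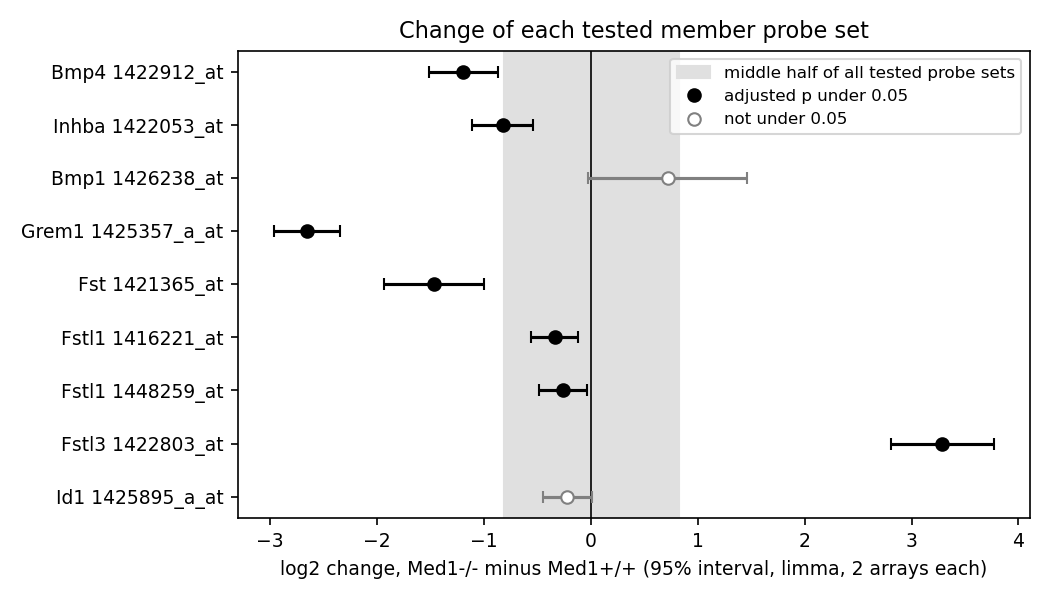
Log2 change (Med1-/- minus Med1+/+, quantile normalized, 2 arrays each) of the 9 tested probe sets with 95% intervals from limma; filled points passed an adjusted p under 0.05, open points did not, and the grey band holds the middle of all 13576 tested probe sets, between -0.81 and 0.83. Fstl3 at 3.29 and Grem1 at -2.65 lie furthest from the band, and the intervals of both Fstl1 probe sets and Id1 lie within it.

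The ligand genes among the 10 were lower in Med1-/- cells where they could be tested. Bmp4 (chr14:46383525-46390669) encodes a BMP ligand of mesenchyme. Its normalized signal was 8.80 and 8.58 on the Med1-/- arrays, against 9.99 and 9.78 on the Med1+/+ arrays, so the genotypes were apart by several times the spread of each pair. Bmp4 fell by 1.19 on the log2 scale (SE 0.13, n = 2 per genotype, adjusted p = 0.000379, limma). It lies on chromosome 14, where the median change of 423 probe sets was -0.36.

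Bmp2 (chr2:133552159-133562896) encodes a close relative of Bmp4. Its deposited signal was 8.4 and 8.1 in Med1-/- cells, against 92.4 and 86.2 in Med1+/+ cells, a ratio of 10.8 in favour of Med1+/+ before any scaling. After quantile normalization the signal was 3.96 and 3.51 in Med1-/-, against 6.39 and 5.81 in Med1+/+ cells. The mean of 4.92 lay just under the filter of 4.98, so Bmp2 was not tested. With no filter, where 43.2% of 22626 probe sets were called, the change of Bmp2 was -2.37 (log2, SE 0.41, adjusted p = 0.00459 by limma with n = 2 per genotype). Of the other members near the filter, a second Bmp1 probe set lay just under it, at a mean of 4.88, and Fst above it, at 6.21.

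Inhba (chr13:16004256-16031609) encodes the inhibin beta A chain, which pairs to form activin A. Its normalized signal was 8.29 and 8.23 on the Med1-/- arrays, against 9.17 and 9.004 on the Med1+/+ arrays. Inhba fell by 0.82 on the log2 scale (SE 0.12, n = 2 per genotype, adjusted p = 0.00105, limma), a change close to the median of its chromosome (-0.89). The genotypes did not overlap.

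Bmp1 (chr14:70474555-70520716), the procollagen protease gene, gave no call. On its brightest probe set, 1426238_at, the normalized signal was 8.96 and 8.48 on the Med1-/- arrays, against 8.45 and 7.55 on the Med1+/+ arrays, the widest spread within a genotype among the tested members. The difference was 0.72 with a 95% interval from -0.02 to 1.46 (adjusted p = 0.073, limma, n = 2 per genotype). It passed without Med1+/+ replicate 1, at 1.19 (adjusted p = 0.00651), and without Med1-/- replicate 2, at 0.94 (adjusted p = 0.0437), whereas it was 0.48 without Med1-/- replicate 1 (adjusted p = 0.26) and 0.28 without Med1+/+ replicate 2 (adjusted p = 0.344). The deposited signals overlapped, at 290.4 and 298.9 in Med1-/-, against 375.5 and 288.4 in Med1+/+ cells. The other Bmp1 probe sets were below the filter, with deposited signals of 1.1 to 24.1 in Med1-/-, against 2 to 36.7 in Med1+/+ cells.

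Id1 (chr2:152736251-152737410) encodes an inhibitor of helix-loop-helix transcription factors and is a standard readout of BMP signalling. Its normalized signal was 10.7 and 10.7 on the Med1-/- arrays, against 10.9 and 10.9 on the Med1+/+ arrays. The difference was -0.22 with a 95% interval from -0.45 to 0.01 (adjusted p = 0.0764, limma, n = 2 per genotype), so that a fall beyond 0.45 lay outside the interval under this normalization.

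The values also depended on how the arrays were brought to a common scale. The median change of all tested probe sets was 0.04 after quantile normalization, 0.22 with medians set equal, 0.04 with 75th percentiles set equal, -0.83 in the values as deposited and -0.82 with the hybridisation controls set equal. The share of higher among all calls was 50.7%, 58.3%, 50.4%, 5.18% and 16.6% in the same order. Measured from that median, Fstl3 stood at 3.20 to 3.25, Bmp4 at -1.23 to -1.17, Grem1 at -2.69 to -2.66, Fst at -1.66 to -1.50, Inhba at -0.86 to -0.845 and Bmp1 at 0.67 to 0.68 across the 5 scalings. Fstl3, Bmp4, Grem1, Fst and Inhba each kept its direction and its call under all of them. Bmp2 passed the filter only in the values as deposited and with the hybridisation controls set equal. It was called lower in both, at -3.192 (adjusted p = 1.17e-07, limma) and -3.185 (adjusted p = 0.000222, limma), which is -2.36 from the median. Bmp2 was bright in Med1+/+ cells alone, with a deposited signal of 8.4 and 8.1 in Med1-/-, against 92.4 and 86.2 in Med1+/+ cells. It thus reached the filter through its brighter genotype, and these calls add no support for its fall. Id1 stood at -0.26 from the median after quantile normalization and between -0.05 and -0.04 under the others, and the Fstl1 probe sets at -0.37 and -0.30 after quantile normalization and between -0.08 and 0.02 under the others. Under the 4 scalings other than quantile normalization, Id1 and Fstl1 thus stood within 0.08 of the median change of all genes.

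**Figure D3:**
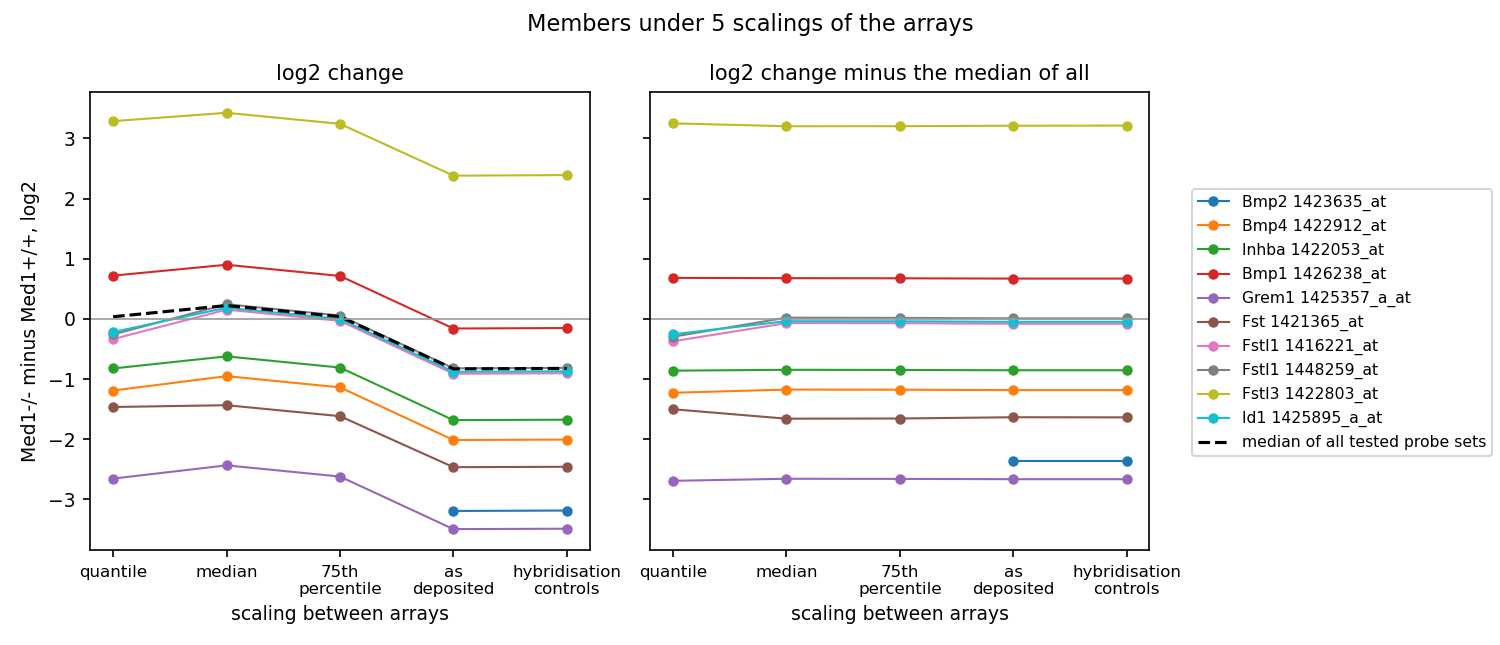
Log2 change (Med1-/- minus Med1+/+) of each member probe set under 5 scalings of the arrays, on the left as computed, with the median of all tested probe sets as a dashed black line, and on the right after subtracting that median; lines join the values of 1 probe set. The right panel shows Fstl3 near 3.2 and Grem1 near -2.7 under all 5, and Bmp2 appears only under the 2 scalings where it passed the filter.

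The other genes of the pathway moved both ways. In 8 lists by role, 68 genes were on the array and 39 of them were tested; 18 were called higher and 9 lower (69.2% in all, close to the 71.6% of all tested probe sets), with a median change of 0.55, against 0.09 over all tested genes. That balance also depended on the scaling, with 3 higher in the values as deposited and with 7 higher and 14 lower on the hybridisation controls. Of the 27 called genes, 1 (Msx2) had a mean below the filter in 1 genotype. Each gene below is given on its brightest probe set, and the counts by role are to be read against the same background.

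Among other ligands, only 2 of 13 BMP and GDF genes on the array were bright enough to test. Bmp6, a BMP ligand, had a deposited signal of 91.7 and 104.7 in Med1-/-, against 46.9 and 59.8 in Med1+/+ cells, and rose by 1.86 (SE 0.20, n = 2 per genotype, adjusted p = 0.000343, limma), although it did not pass in the values as deposited (0.87). Gdf2, which encodes BMP9, had a difference of 0.45 that did not pass. Inhbb, the inhibin beta B chain, rose by 2.08 (SE 0.20, n = 2 per genotype, adjusted p = 0.00022, limma), the opposite direction to the beta A chain gene Inhba, with a second probe set called at 1.03, and Inha, the alpha chain, had a difference of 0.14 that did not pass. Of 5 antagonist genes tested, Nbl1, a relative of gremlin, rose by 1.31, Twsg1, a chordin-binding protein, fell by 0.62 on a probe set of a kind that can match transcripts of other genes, and 3 were not called. The Nbl1 change was 0.35 and did not pass in the values as deposited.

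Of 6 receptor and co-receptor genes 3 were called higher and 2 lower. Bmpr1a, a type I BMP receptor, had a deposited signal of 210.8 and 289.7 in Med1-/-, against 1150.1 and 1231.4 in Med1+/+ cells and fell by 1.43 (SE 0.16, n = 2 per genotype, adjusted p = 0.00035, limma). Its 3 other tested probe sets were called lower as well, at -1.44 to -0.98. Eng, the co-receptor endoglin, rose by 0.83 after quantile normalization (adjusted p = 0.00935, limma), but was at -0.21 in the values as deposited, and without Med1+/+ replicate 2 its call was lost (0.72, adjusted p = 0.062).

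Of 5 Smad genes 2 were called higher and 2 lower on their brightest probe sets. Smad5 (-1.28) and Smad1 (-0.73), which BMP receptors activate, were called lower there, but a second tested probe set of each was not called and lay above 0, at 0.47 for Smad5 and 0.12 for Smad1. The inhibitory Smad genes Smad7 (1.20) and Smad6 (1.06), themselves known targets of the pathway, rose after quantile normalization. Measured from the median of all probe sets, the brightest probe set of Smad5 stood at -1.48 to -1.32, Smad1 at -0.77 to -0.67, Smad7 at 1.16 to 1.17 and Smad6 at 1.02 to 1.08 across the 5 scalings. Smad1 and Smad6 lie outside the naming rule and were named after their values were seen. In the values as deposited Smad7 (0.33) and Smad6 (0.24) did not pass. Of 7 tested target genes 3 were called higher and 2 lower. The Id family was divided, with Id4 at -1.40 and Id2 at -0.89 called lower, Id3 at 0.48 called higher (-0.11 and not called in the values as deposited) and Id1 not called; of these Id2 and Id3 were named after their values were seen. The Id2 call was lost with medians set equal (-0.62, adjusted p = 0.113, limma), and of 2 other tested Id4 probe sets 1 was called lower and 1 was not, at -0.16. Msx2, a homeobox gene induced by BMPs, rose by 1.31, with a mean of 6.16 in Med1-/- and of 4.85 in Med1+/+ cells, the second below the filter, so it was tested through its brighter genotype alone. The call was lost without Med1+/+ replicate 2 (1.02, adjusted p = 0.05) and in the values as deposited (0.32).

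Genes whose products act with or on Bmp1 make up the last group. Tll1, a related tolloid protease, rose by 0.68 (adjusted p = 0.0444, limma), a call that was lost without any 1 of the 4 arrays (0.0595 to 0.226) and was at -0.34 in the values as deposited, and 2 procollagen protease enhancers were not called. Of 9 genes for Bmp1 substrates, 6 rose and 2 fell (66.7% and 22.2%, against 36.3% and 35.3% of all tested probe sets), with a median change of 1.01, against 2 higher and 2 lower in the values as deposited; measured from the median of all genes the list's median was 0.93 to 1.24 across the 5 scalings. Col1a1, the alpha 1 chain of type I collagen, had a deposited signal of 3722.7 and 6043.6 in Med1-/-, against 1366.3 and 2225.2 in Med1+/+ cells and rose by 1.98 (SE 0.11, n = 2 per genotype, adjusted p = 7.83e-05, limma). Ogn, the small proteoglycan osteoglycin, had a deposited signal of 26.9 and 45.4 in Med1-/-, against 678.9 and 888.5 in Med1+/+ cells and fell by 3.46 (SE 0.15, n = 2 per genotype, adjusted p = 7.26e-05, limma). Second probe sets of both genes were called in the same direction, at 2.13 for Col1a1 and -3.00 for Ogn. Col1a1, Col1a2 and Col3a1 are also among the fibroblast markers counted above, so the counts overlap. Of these, Col1a1 and Col3a1 were called higher and Col1a2 was not called. Col1a2 and Col3a1 lie outside the naming rule and are named for this overlap.

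**Figure D4:**
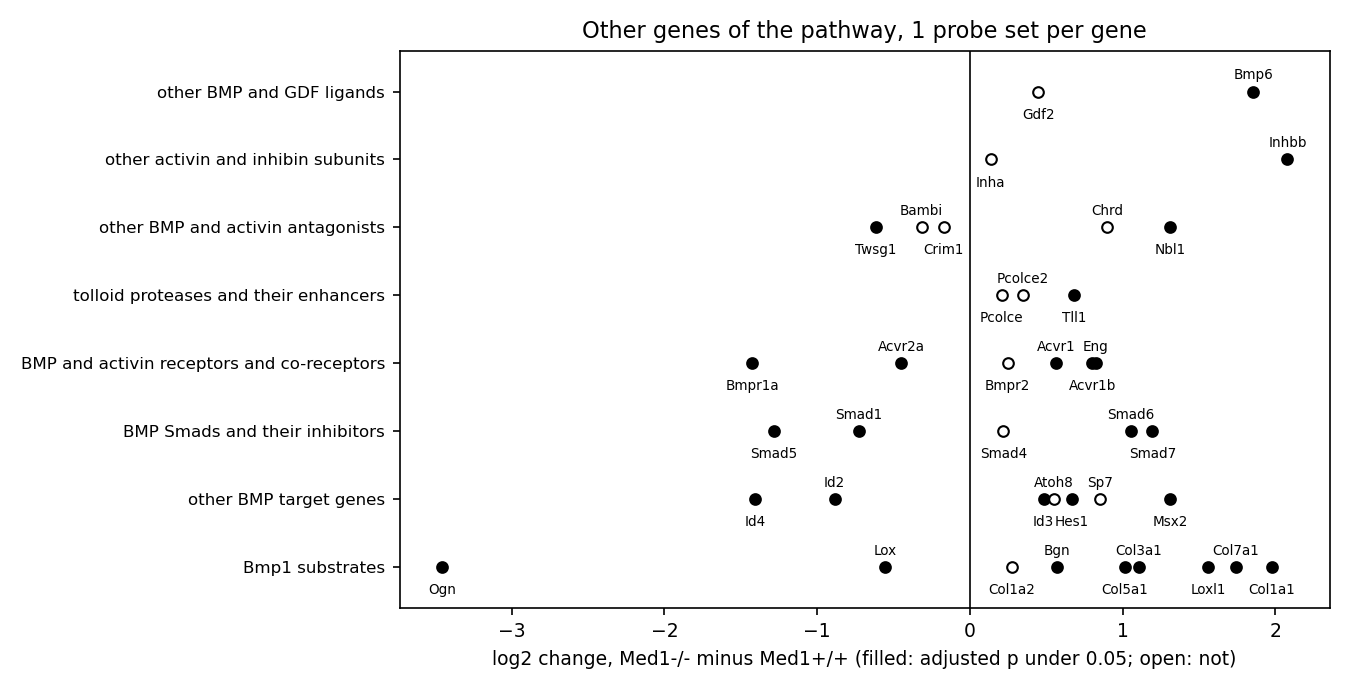
Log2 change (Med1-/- minus Med1+/+, quantile normalized) of the 39 tested genes of 8 pathway lists, 1 probe set per gene; filled points passed an adjusted p under 0.05 and open points did not. Smad6 and Smad7 lie right of 0, the brightest probe sets of Smad1 and Smad5 left of it (their second ones were at 0.12 and 0.47), and 6 of 9 Bmp1 substrate genes are called higher.

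The genes with the pattern most like Fstl3, by the root mean square difference of centred log2 values over the 4 arrays among 7873 other named genes, were H2ac19 (0.045), Tgm2 (0.062) and Zic1 (0.11). Those most like Grem1 were Vwa5a (0.048), Gnai1 (0.055) and Bnip3 (0.055). With 4 arrays in 2 genotypes this likeness is mainly a like size of change, from 3.24 to 3.37 for the first 3 and from -2.67 to -2.55 for the other 3. The probe sets of H2ac19, Tgm2 and Gnai1 are of kinds that can also match transcripts of other genes.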

How the data were processed

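Biotin-labelled copies of total RNA from 4 fibroblast samples were hybridised to Affymetrix arrays, per the labels' protocols. The authors deposited, for each array, a linear intensity of every probe set. Their probe summary, background correction and scaling are not given in the sources used. The 64 control probe sets were left out, and the other 22626 were quantile normalized, because the deposited 75th percentiles ran from 193.3 to 507.6. Values were taken as log2(intensity + 1.7), where 1.7 is the 10th percentile of all deposited values, so changes of dim genes are understated. A filter at the 40th percentile of the means (4.98) kept 9050 probe sets out of the test.

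Med1-/- and Med1+/+ were compared with limma 3.58.1 under R 4.3.3, two-sided, by lmFit and by eBayes with a trend on intensity (2 residual and 4.37 prior degrees of freedom), over 13576 probe sets rather than 1 per gene, because every probe set of a member was wanted, with Benjamini-Hochberg adjustment and a threshold of 0.05. The procedure was tested on simulated data. Genes were named by the array's annotation, with symbols brought up to date from RefSeq genes of GRCm38.p6 by Entrez identifier: 20380 probe sets had 1 symbol, 691 several and 1555 none. Upstream sequences came from RefSeq's promoters of the same build, which held 5 of the 10 members. No detection calls were used, and the number of arrays limits the precision.

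The members and the lists were chosen with earlier results of these data known. Named were all members, Med1, the called gene with the largest rise and the largest fall of each list (all genes of lists with under 3 tested) and the 3 genes most like the members with the largest rise and fall, except where stated. Alternatives varied the filter, scaling, pseudocount, probe sets per gene, variance trend, replicate block, arrays and threshold. Figures were drawn with matplotlib 3.10.9.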

Additional observations from a re-analysis of the deposited data

How the results depend on the processing

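In 16 alternative settings, 141 values of the tested member probe sets were recomputed; 114 kept their direction and their side of the threshold, 15 lost a call, 6 gained one and 6 reversed. Fstl3, Grem1, Fst, Bmp4 and Inhba kept both in every setting in which they were tested. Reversals came from scaling: Bmp1 was -0.16 as deposited and -0.15 on the hybridisation controls, where the median of all probe sets was -0.83 and -0.82; with medians set equal Fstl1 was 0.16 and 0.25 (0.057 for 1448259_at with 75th percentiles set equal) and Id1 0.19. Of 350 values of 23 probe sets of other genes named by the rule, 6 reversed, as deposited and on the hybridisation controls: Eng (-0.21 and -0.20), Gdf2 (-0.57 and -0.56) and Tll1 (-0.34 and -0.33).

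The member probe sets called higher numbered 1, and 2 with medians set equal, where Bmp1 passed. None of 7 tested was called higher with a filter at the 60th percentile (0 by limma, and 0 at an unadjusted p under 0.05), which Fstl3 did not reach. Leaving out 1 array gave 1 to 2. Of all probe sets 4923 were called higher and 4795 lower; as deposited 326 were higher, on the hybridisation controls 1633 higher and 8194 lower, and with at least a 2-fold difference 2670 higher and 2625 lower. Pathway genes called higher numbered 3 as deposited and 7 on the hybridisation controls, where 14 were lower. With 1 probe set per gene, Med1 had 1 call in place of 2, by construction. Id1 passed on the hybridisation controls (-0.87). The cause of the other changes was not tested.

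With the replicate number as a block (replicate block) 2 member probe sets were called higher, Bmp1 being added (adjusted p = 7.4e-06, limma), and Id1 was called lower (adjusted p = 0.0107, limma). The block leaves fewer residual degrees of freedom than the 2 of the main fit. Its p-values therefore rest mostly on variance borrowed across probe sets and are no firm measure for Bmp1 or Id1. The labels give only the number and do not say whether samples with the same number are linked. With 2 pairs, replicate 1 deviations correlated at 0.30 between genotypes across 13576 probe sets.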
